A study of Mus musculus with 4 samples.

Results

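The genes described here encode the nuclear subunits of the mitochondrial respiratory chain and of ATP synthase. They were chosen by symbol (Nduf, Sdh, Uqcr, Cox, Atp5, Cyc1 and Cycs patterns) from the 12662 genes of the deposited log2 RPKM tables, which gave 81 genes of the 26286 in the count table. By complex they comprise 35 genes of complex I, 4 of complex II, 8 of complex III including Cyc1, the cytochrome c gene Cycs, 15 of complex IV and 15 of complex V. The other 3 carry matching symbols but are not subunits of these complexes. Atp5s encodes coupling factor B, Atp5sl is an older name of the complex I assembly factor Dmac2, and Cox4nb is an older name of Emc8, a subunit of an endoplasmic reticulum complex. Ndufa4 was counted with complex IV, where its protein is now placed, although its name comes from complex I.

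RNA sequencing covered 4 libraries, 2 labelled Hhex-deleted and 2 wild-type, all from LSK cells (lineage-negative, Sca-1-positive, Kit-positive) of C57BL/6 mouse bone marrow, the fraction that holds blood stem cells and multipotent progenitors. The title of the series concerns repression of Cdkn2a by Hhex, a homeobox transcription factor, in stem cells. The sources used here give neither the age of the mice, nor the driver of the deletion, nor whether each library is a different animal. The p-values therefore reflect the spread of these 4 libraries alone, which may be technical in part. By sex-linked RNA, given below, labelled Hhex-deleted replicate 1 differs in sex from the other libraries. The 2 labelled Hhex-deleted libraries are thus not from 1 animal. Both groups share strain, tissue and sort.

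Total counts were 27871827 to 29501591 per library. CPM here means counts scaled to library size after TMM, a correction for differences in library composition, and RPKM is CPM per kilobase of gene length. Hhex itself had 179 and 188 CPM where labelled deleted, against 127 and 115 CPM for wild-type (edgeR adjusted p = 0.0271), so its gene-level count runs against the label, and exons outside a deleted part would still be counted. The groups are therefore called by their labels throughout, and where 2 pairs of values are set against each other the labelled Hhex-deleted libraries come first, replicate 1 before replicate 2. Of the LSK markers, Kit stood at 566 to 698 CPM, Cd34 at 782 to 856 CPM and Ly6a, the Sca-1 gene, at 20.7 to 42.5 CPM. Summed mast cell and basophil markers (4 of 4 passed the test) were 790 and 726 CPM against 172 and 157 CPM, and summed B cell markers (3 of 4 passed) 43.8 and 61 CPM against 6.38 and 8.26 CPM. Summed neutrophil and monocyte markers were 147 and 247 CPM against 413 and 632 CPM. None of the 3 tested passed edgeR's test, with S100a8 at 50.1 and 174 CPM against 268 and 462 CPM, and the fourth, Ly6g, was at 0 to 0.219 CPM. Summed erythroid markers (0 of 5 passed) were 260 and 350 CPM against 225 and 300 CPM, and summed T cell markers 2.29 to 3.55 CPM, with Cd3e at 0 to 0.265 CPM. The part of these cell types in the members' values was not tested. Xist stood at 2662 CPM in labelled Hhex-deleted replicate 1, which had 0.343 CPM of the Y-linked Ddx3y, while the other 3 libraries had 1.89 to 2.66 CPM of Xist and 124 to 138 CPM of Ddx3y. Replicate 1 thus had a female pattern and the other 3 libraries a male pattern. Sex cannot be told apart from other differences between the labelled Hhex-deleted libraries. In bulk RNA, fewer cells of a type and less RNA per cell cannot be told apart.

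The respiratory chain passes electrons from NADH (complex I) and succinate (complex II) through coenzyme Q to complex III, on by cytochrome c to complex IV, and there to oxygen. Complexes I, III and IV pump protons across the inner membrane, and complex V, ATP synthase, uses the return flow of protons to make ATP. Most subunits are nuclear-encoded and meet subunits made from mitochondrial DNA inside the organelle. Quiescent blood stem cells are known for relying more on glycolysis, and for raising mitochondrial respiration when they differentiate. The subunits encoded in mitochondrial DNA were not analysed here.

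All 81 members passed the low-count filter, and none was called by edgeR's quasi-likelihood test at a Benjamini-Hochberg adjusted p under 0.05, a threshold that 2.6% of the 14912 tested genes passed. At an unadjusted edgeR p under 0.05, 2 members were higher, where 7.59% of all tested genes were, and 3 lower, where 8.23% were. Together that is 6.17% of the members against 15.8% of all tested genes. DESeq2 called 1 member, Ndufa4, where it called 6.63% of all genes, and limma-voom called none, where it called 1.35%. The 5 members past the unadjusted threshold were Cox4i2, Cox5a and Uqcrc1, which were lower, and Ndufa4 and Cox6a2, which were higher. A call that is missed does not show equal levels, so each fold change is also given with a 95% interval. For 74 of the members this interval lay inside a change of 1.5-fold in either direction. The 7 whose interval reached outside were Cox4i2, Cox6a2, Cox7a1, Sdhd, Cycs, Ndufb4 and Atp5l, all with mean levels under 6 RPKM.

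**Figure D1:**
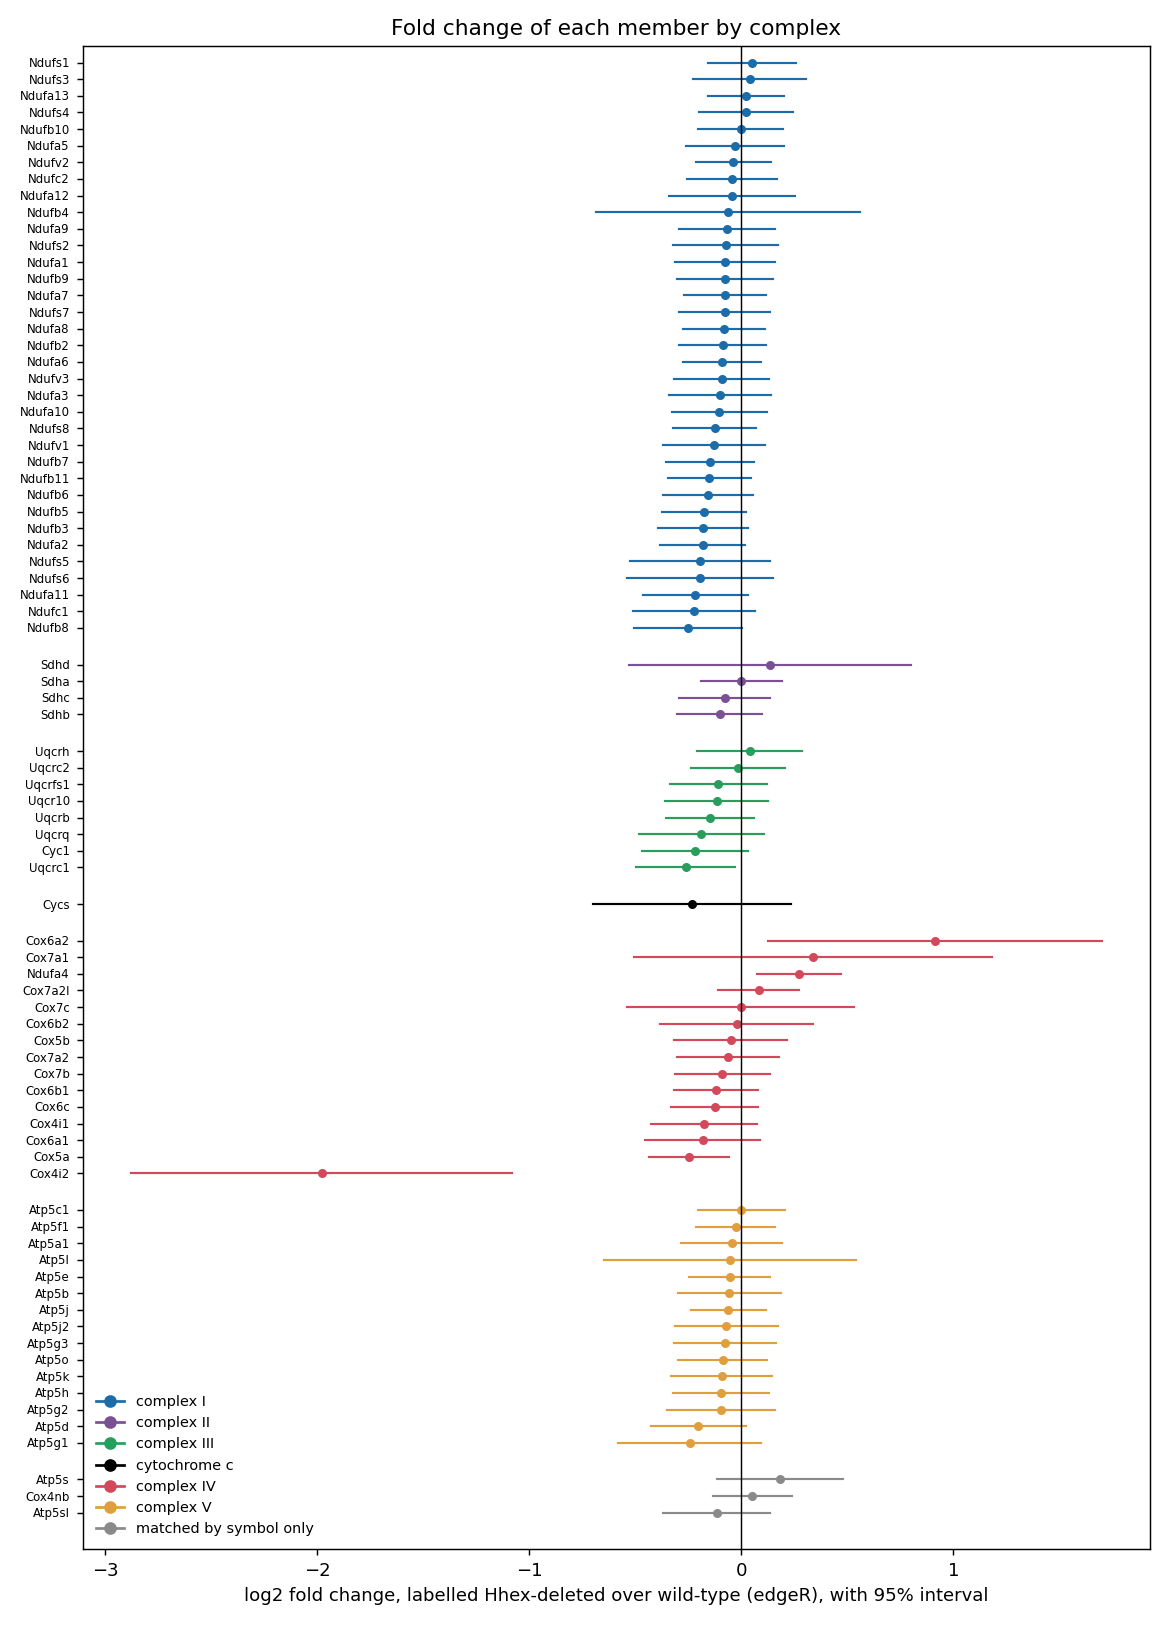
Log2 fold change of each of the 81 members, labelled Hhex-deleted over wild-type (x axis), with points for edgeR estimates, bars for 95% intervals and colours for complexes. Complex V lies entirely at or below 0 (from -0.24 to -0.001), while Cox4i2 (-1.98) and Cox6a2 (0.91) of complex IV stand farthest from 0.

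The members differed little among themselves in fold change. Their log2 fold changes had a median of -0.08 and an interquartile range of 0.11, beside a median of -0.005 and an interquartile range of 0.27 over all tested genes. For the 73 members that averaged 10 CPM or more the interquartile range was 0.103, and over the 10180 tested genes at that level it was 0.198. Fitted values lay below 0 for 69 members (85.2%, against 51.2% of all tested genes). The groups did not overlap, with both labelled Hhex-deleted libraries below both wild-type libraries, for 30 members (37% against 23.7%). They did not overlap in the other direction for 7 members (8.64% against 21.9%).

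The lower values were most marked in 1 library. Labelled Hhex-deleted replicate 2 was the lowest of the 4 libraries for 70 of the 81 members (86.4%, against 30.5% of all tested genes). Relative to each gene's wild-type mean, the members' median log2 value was -0.18 in that library and -0.008 in labelled Hhex-deleted replicate 1, with 0.015 and -0.015 in the wild-type libraries, which centre on 0 by construction. In replicate 1, 45 of the 81 members lay below the wild-type mean, and in replicate 2, 74 did. Summed over all members, the level was 9998 CPM in labelled Hhex-deleted replicate 1, 8799 CPM in replicate 2, and 10002 and 9773 CPM in wild-type. Replicate 1 thus lay between the wild-type libraries in summed level, and replicate 2 below all of them. Without labelled Hhex-deleted replicate 2 the members' median log2 fold change was -0.001 and 41 of them lay below 0. Without labelled Hhex-deleted replicate 1 it was -0.18 and 74 lay below 0.

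Other measures also moved in labelled Hhex-deleted replicate 2. Its TMM factor was 1.03, where the other libraries had 0.984 to 1. Tested genes shorter than 1000 bases with a mean of at least 10 CPM (988 genes) had a median log2 value of -0.10 against the wild-type mean in that library, and longer genes at that level -0.014. Among the members, the 53 shorter than 1000 bases had a median of -0.19 there, and the 28 longer ones -0.17. The summed LSK markers stood at 2227 CPM in that library against 1803 to 1877 CPM in the others, with Flt3, a receptor of multipotent progenitors, at 506 CPM against 276 to 301 CPM. The part of gene length, scaling, cell composition and sex in the lower values was not tested.

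**Figure D2:**
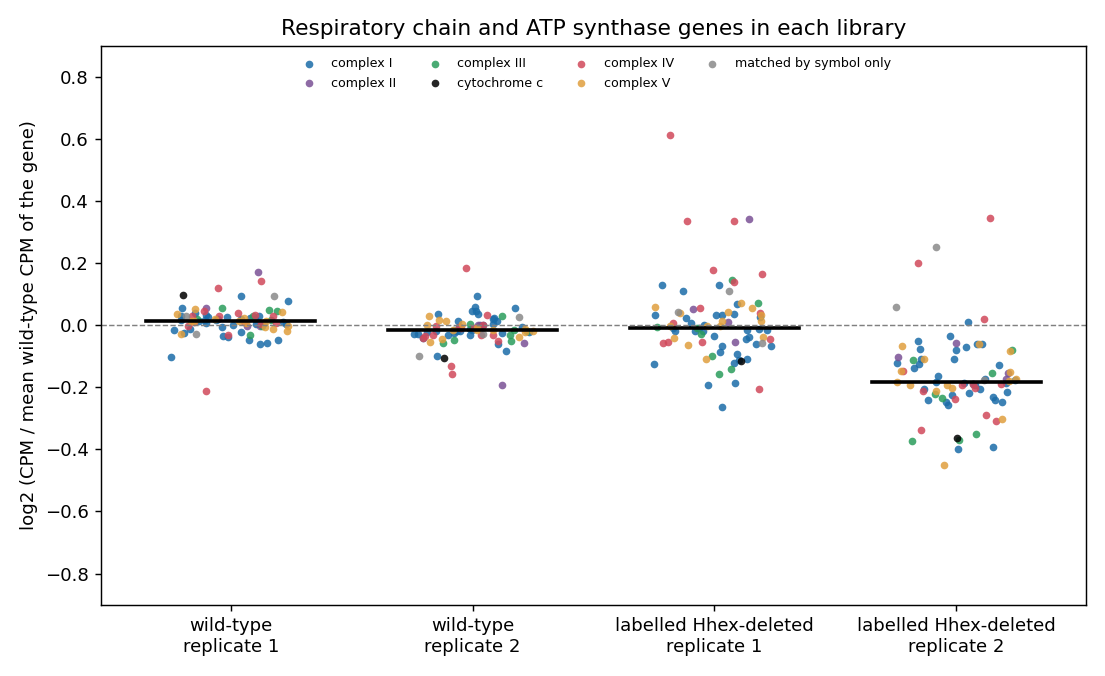
Each point is a member's CPM in 1 library over its wild-type mean, on a log2 scale (y axis), coloured by complex, and black bars are medians over the 81 members. The median bar of labelled Hhex-deleted replicate 2 lies at -0.18 and the other 3 bars lie within 0.015 of 0. Values beyond 0.9 in size (Cox4i2 in both libraries labelled Hhex-deleted and Cox6a2 in replicate 2) fall outside the axis.

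Complex I is the entry point for electrons from NADH and the largest group. None of its 35 genes passed the test, 31 had fitted values below 0, and the median log2 fold change was -0.09 (range -0.25 to 0.05). The groups did not overlap with lower values for 15 genes (42.9%, against 23.7% of all tested genes), and with higher values for 1 (2.86%, against 21.9%), Ndufa13, which stood at 61.3 and 60.4 CPM against 60.2 and 59.7 CPM. The 7 conserved core subunits, which bind the flavin and iron-sulphur clusters and form the quinone site, had a median of -0.08. The 28 accessory subunits had a median of -0.09. Ndufv1, which takes electrons from NADH, was at 134 and 114 CPM against 138 and 132 CPM. These values show the recurrent pattern of replicate 1 beside wild-type and replicate 2 lower.

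Within complex I the lowest fold change was that of the accessory subunit gene Ndufb8, whose protein is a common marker of assembled complex I. Ndufb8 stood at 94.1 and 77.9 CPM against 103 and 102 CPM. Its groups did not overlap (log2 fold change -0.25 ± 0.10 SE, interval -0.50 to 0.003, edgeR adjusted p = 0.322). The highest was Ndufs1, the largest core subunit, at 129 and 116 CPM against 120 and 117 CPM, where the groups overlapped (log2 fold change 0.05 ± 0.09 SE, edgeR adjusted p = 0.865). Per length, complex I genes ran from 5.01 RPKM for Ndufb4 to 161 RPKM for Ndufb9 and 168 RPKM for Ndufa3, with a median of 88.8 RPKM.

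Complex II links the tricarboxylic acid cycle to the chain, and all 4 of its subunits are nuclear genes. Sdha, the flavin-binding subunit that oxidises succinate, stood at 412 and 382 CPM against 397 and 397 CPM. The wild-type values lay between the others (log2 fold change -0.0004 ± 0.08 SE, edgeR adjusted p = 0.999). Sdhb, the iron-sulphur subunit, and Sdhc, a membrane anchor, had log2 fold changes of -0.10 and -0.08. Sdhd, the other anchor, was counted at only 4.11 and 3.02 CPM against 3.65 and 2.84 CPM. Its level of 2.65 RPKM was far under the 98.3 to 139 RPKM of the other 3 subunits, and its fold change has a wide interval (-0.53 to 0.80).

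Complex III passes electrons from coenzyme Q to cytochrome c. Of its 8 genes, 7 had fitted values below 0 (87.5%, against 51.2% of all tested genes) and 4 had groups that did not overlap, all lower where labelled Hhex-deleted (50%, against 23.7%), with a median log2 fold change of -0.13. Uqcrc1, a core protein, stood at 256 and 221 CPM against 280 and 292 CPM. Both libraries were below wild-type (log2 fold change -0.26 ± 0.10 SE, interval -0.49 to -0.03, edgeR adjusted p = 0.257). Without labelled Hhex-deleted replicate 2 the value was -0.15, and without replicate 1 it was -0.37. Its partner core protein gene Uqcrc2 was at 281 and 247 CPM against 273 and 262 CPM, with overlapping groups and a log2 fold change of -0.02. Cyc1, which encodes cytochrome c1, stood at 160 and 135 CPM against 174 and 170 CPM (log2 fold change -0.22 ± 0.10 SE, edgeR adjusted p = 0.391). The accessory subunit genes Uqcrh (230 RPKM) and Uqcr10 (164 RPKM) had the highest levels per length, and Uqcrh the highest log2 fold change of the complex, 0.04.

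Cycs encodes somatic cytochrome c, the soluble carrier between complexes III and IV that also triggers the apoptosome when it leaves mitochondria. It was counted at 7.4 and 6.24 CPM against 8.57 and 7.46 CPM. The groups did not overlap, though by a narrow margin, and the estimate was -0.23 ± 0.19 on the log2 scale (SE, edgeR adjusted p = 0.672).

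Complex IV, cytochrome c oxidase, reduces oxygen and is the complex with the most tissue-restricted isoforms, and its 15 genes spread more than those of the other complexes. Their interquartile range of log2 fold changes was 0.19, against 0.10 in complex I, 0.12 in complex II, 0.11 in complex III and 0.04 in complex V. The 15 include Cox4i2, Cox6a2 and Cox7a1, which had at most 100 reads in a library and log2 fold changes of -1.98, 0.91 and 0.34. The part of low counts in this spread was not tested. Of the 5 members past the unadjusted edgeR threshold, 4 belong to complex IV, Cox4i2 and Cox6a2 among them. That is 26.7% of its 15 genes, against 15.8% of all tested genes. The groups did not overlap for 10 of the 15 genes, 6 lower (40%, against 23.7% of all tested genes) and 4 higher (26.7%, against 21.9%). Cox5a stood at 139 and 131 CPM against 156 and 163 CPM. Both libraries labelled Hhex-deleted were below wild-type (log2 fold change -0.25 ± 0.08 SE, interval -0.44 to -0.06, edgeR adjusted p = 0.192). With 1 library left out it ran from -0.29 to -0.20. Of Cox5a's windows of 50 bases, 32% also occur in other annotated transcripts, so its count may not be its own alone.

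Ndufa4 ran opposite to most of the chain. It stood at 277 and 253 CPM against 220 and 219 CPM, so that even labelled Hhex-deleted replicate 2 lay above both wild-type libraries. The log2 fold change was 0.27 ± 0.08 (SE, interval 0.07 to 0.47), with an edgeR adjusted p of 0.173 and a DESeq2 adjusted p of 0.0388. Without labelled Hhex-deleted replicate 1 it was 0.20, and without replicate 2 it was 0.34. At 492 RPKM it had the second highest level per length of the 81 members, and none of its windows was shared with another annotated gene. Its paralog Ndufa4l2, a gene known for its induction by hypoxia, had 0 reads in each labelled Hhex-deleted library and 2 and 1 for the wild-type pair, under the floor of 3 counts that limits what a library can show.

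Alternative isoforms of complex IV differed in level and in direction. Cox4i1, the general isoform of subunit 4, which takes part in the regulation of the enzyme by ATP, stood at 282 and 237 CPM against 299 and 287 CPM (log2 fold change -0.18 ± 0.10 SE, edgeR adjusted p = 0.511). Cox4i2, an isoform known from lung and from its response to hypoxia, had 10 and 10 reads against 40 and 35 reads. That is 0.343 and 0.332 CPM against 1.46 and 1.23 CPM, a separation of all 4 values with the farthest fold change of the members. The log2 fold change was -1.98 ± 0.37 (SE, interval -2.88 to -1.08), and its edgeR adjusted p was 0.0554. Without a filter on low counts, a setting that called 2.85% of 19482 genes, edgeR's adjusted p was 0.0447 and the gene was called. Over the other alternatives the adjusted p of Cox4i2 ran from 0.059 to 0.243. Per length, Cox4i2 made up 0.113% and 0.131% of the Cox4i1 and Cox4i2 total against 0.453% and 0.397%, so Cox4i1 made up 99.5% to 99.9% in the 4 libraries.

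The isoforms named for heart and muscle were also low. Cox6a2 had 66 and 100 reads against 35 and 48, which is 2.26 and 3.32 CPM against 1.28 and 1.68 CPM. The groups did not overlap (log2 fold change 0.91 ± 0.32 SE, interval 0.13 to 1.70, edgeR adjusted p = 0.238). Without labelled Hhex-deleted replicate 2 it was 0.62, and without replicate 1 it was 1.16. In the GENCODE annotation its exons overlap on the other strand with Itgad, an integrin gene, which stood at 2.6 and 1.82 CPM against 0.985 and 1.65 CPM, and where they overlap reads cannot be told apart without strand. Of Cox6a2's 50-base windows, 3.33% were shared with Itgad. Cox7a1 stood at 0.856 and 0.862 CPM against 0.693 and 0.665 CPM (log2 fold change 0.34 ± 0.35 SE, edgeR adjusted p = 0.751). The muscle markers Ckm, Acta1 and Myh4 summed to 0.199 to 0.56 CPM in all 4 libraries.

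The share of the general isoform differed between subunits. Cox6a1 held 97.7% to 99.3% of the subunit 6a total per length, with a log2 fold change of -0.18 (edgeR adjusted p = 0.53). Cox6b2, known as a testis isoform, was not rare: it stood at 36 and 27.3 CPM against 33.2 and 31 CPM and made up 13.9% to 16.3% of the subunit 6b total, beside Cox6b1. Its 2 labelled Hhex-deleted values enclosed those of wild-type (log2 fold change -0.02). Cox7a2 and the related gene Cox7a2l were at similar levels per length (122 and 114 RPKM). Cox7a2l stood at 140 and 129 CPM against 128 and 126 CPM and, like Ndufa4, was above wild-type in both libraries (log2 fold change 0.08 ± 0.08 SE, edgeR adjusted p = 0.735). Cox7a2 was at 97.4 and 82.2 CPM against 94.3 and 93.1 CPM (log2 fold change -0.06).

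**Figure D3:**
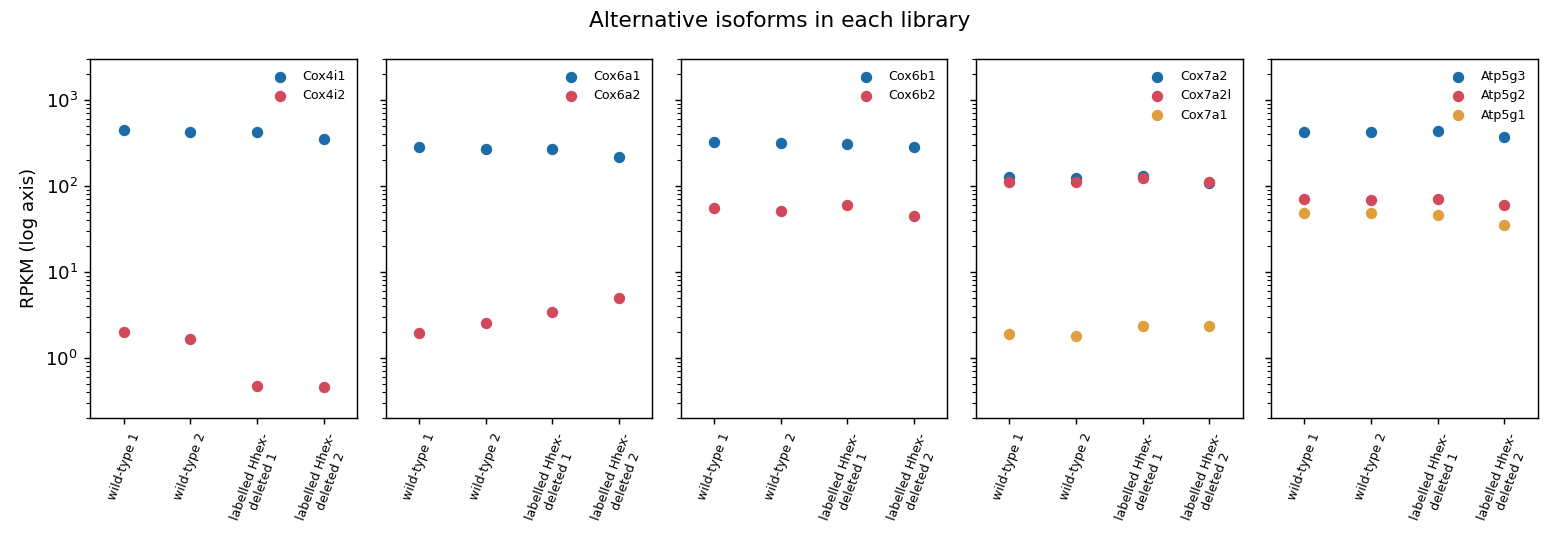
RPKM (log axis) of alternative isoforms in each of the 4 libraries, 1 point per library and gene. Cox4i2 lies at 0.471 and 0.456 RPKM in the labelled Hhex-deleted pair and at 2.01 and 1.69 RPKM in the wild-type pair, while Cox4i1 lies between 349 and 441 RPKM.

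Complex V makes ATP from the proton gradient, and its genes had the closest fold changes. All 15 fitted values were below 0, from -0.24 for Atp5g1 to -0.001 for Atp5c1, with a median of -0.07, although Atp5c1 lay above 0 with other scalings (0.006 with DESeq2 and RLE factors, 0.022 with library totals). Without labelled Hhex-deleted replicate 2 the median of complex V was 0.02. None of the 15 passed the test, none had an unadjusted edgeR p under 0.05, and groups did not overlap for 4 genes, all lower (26.7%, against 23.7% of all tested genes). Atp5b, the catalytic beta subunit, had the highest level of all members, 730 RPKM, at 1458 and 1232 CPM against 1442 and 1357 CPM. Labelled Hhex-deleted replicate 1 was the highest library for Atp5b and replicate 2 the lowest (log2 fold change -0.06 ± 0.10 SE, edgeR adjusted p = 0.867). Atp5a1, the alpha subunit that alternates with beta in the catalytic ring, was at 1011 and 853 CPM against 970 and 954 CPM. Summed over complex V, the level was 4016 and 3473 CPM against 3966 and 3842 CPM, the same order of libraries.

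The membrane ring of ATP synthase is built of subunit c, which Atp5g1, Atp5g2 and Atp5g3 encode with the same mature protein and different import sequences. Atp5g3 held 77.9% to 79.3% of their summed RPKM, Atp5g2 12.7% to 13.1% and Atp5g1 7.65% to 8.99%. Atp5g3 stood at 294 and 249 CPM against 286 and 287 CPM, with overlapping groups. Atp5g1 was at 40.2 and 30.7 CPM against 42.2 and 41.7 CPM (log2 fold change -0.24 ± 0.14 SE, edgeR adjusted p = 0.5). That value was -0.06 without labelled Hhex-deleted replicate 2 and -0.45 without replicate 1.

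The 3 genes that match by symbol only had log2 fold changes of 0.18 (Atp5s), 0.05 (Cox4nb) and -0.12 (Atp5sl). Atp5s was at 18.4 and 20.2 CPM against 16.7 and 17.3 CPM, above wild-type in both libraries (edgeR adjusted p = 0.579). Unlike most of the chain, Atp5s and Cox4nb were highest in labelled Hhex-deleted replicate 2, as were Cox6a2 and Cox7a1 of complex IV.

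Levels per length spanned from 1.15 RPKM (Cox4i2) to 730 RPKM (Atp5b), with a median of 100 RPKM over the members. Median levels were 151 RPKM in complex V, 139 RPKM in complex III, 114 RPKM in complex IV, 105 RPKM in complex II and 88.8 RPKM in complex I. Together the members took 0.903% to 0.989% of the counts of a library. A group of subunits that every cell uses was counted far below the rest: Ndufb4 (5.01 RPKM), Atp5l (5.06 RPKM), Sdhd (2.65 RPKM) and Cycs (2.42 RPKM). Many of these genes have processed pseudogenes, copies of their mRNA elsewhere in the genome, and reads that match several places may be lost or split. Of the windows of 50 bases in the annotated coding transcripts, 84.8% in Atp5l, 37% in Ndufb4 and 28.5% in Cycs also occur in another annotated gene, but none in Sdhd. Other members with many shared windows were not counted low: Atp5o (47.6%) stood at 114 RPKM and Uqcrb (43.4%) at 89 RPKM. For 18 members over 20% of windows are shared, so their levels are uncertain. The part of shared windows in the low levels was not tested.

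**Figure D4:**
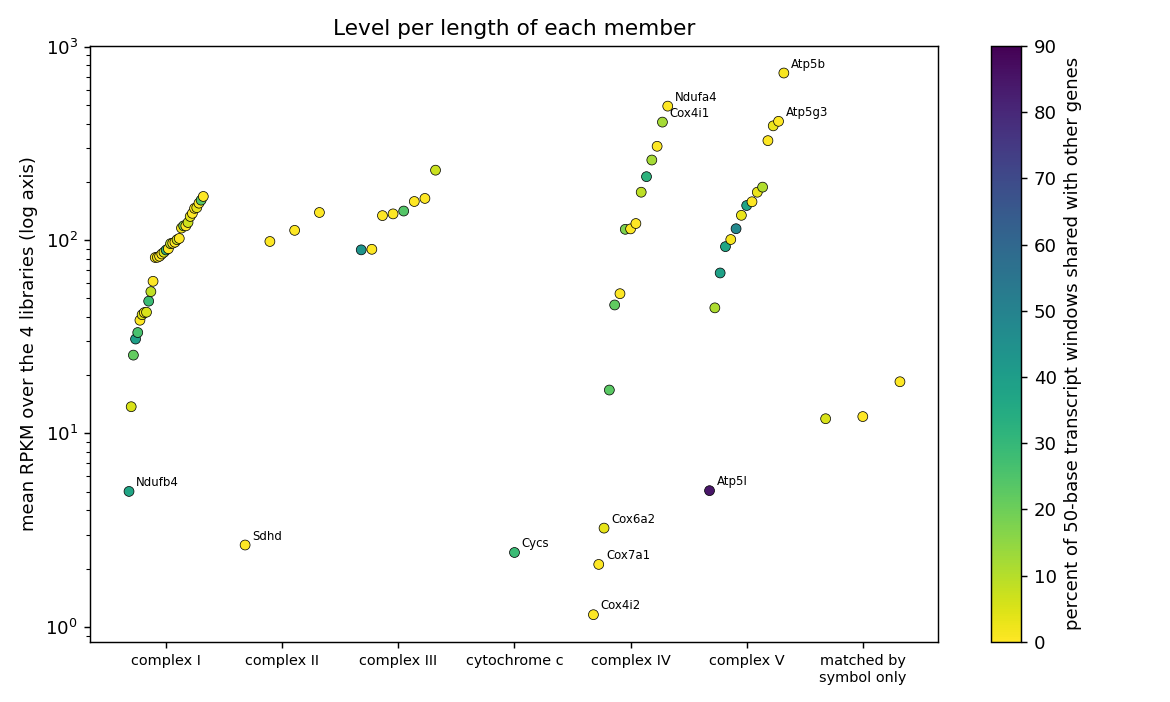
Mean RPKM over the 4 libraries (log axis) of each member, ordered by level within its complex and coloured by the percent of its 50-base windows shared with other annotated genes. Medians run from 88.8 RPKM in complex I to 151 RPKM in complex V, and Atp5l, the member with the most windows shared (84.8%), lies at 5.06 RPKM.

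Nuclear genes of the chain are known targets of the factors NRF1, GABPA and YY1, so the members' promoters were read. A link between motifs and fold changes was not tested. RefSeq windows of GRCm38, from 250 bases before to 50 bases after the annotated start, were found for 66 of the 81 members. The palindromic NRF1 motif, GCGCA followed directly by TGCGC, was present on either strand in 7.6% of these members, against 2.2% of tested genes with a window and 1.1% of all genes. The GABPA motif CCGGAAG was in 21.2%, against 19.3% and 9.9%, and the YY1 motif AAGATGGCG in 12.1%, against 3.4% and 1.6%. None of the 3 motifs contains another, and a GABPA match can run into a YY1 match through a shared AAG. At least 1 motif was present in 24 members, or 36.4%, against 23.6% of tested genes. By complex, the YY1 motif was in 5 of 31 complex I genes and 2 of 14 complex V genes, and in none of 11 complex IV genes. A match is a description of letters, not a site in use.

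The windows with 2 of the motifs were those of Cox6a1, Atp5j and Atp5k, and they are printed with Ndufa4 as an example without a match. Ndufb8, Cox5a and Atp5g1 also held none, as did most members with a window. Each is the 250 bases before the start, 5′ to 3′ on the gene's strand, and capitals mark motif matches. Cox6a1 (chr5:115348959-115349208, minus strand) holds the NRF1 motif and, nearer the start, the GABPA motif on the other strand. Atp5j (chr16:84834977-84835226, minus strand, 1 of 2 annotated starts) holds the YY1 and then the GABPA motif, and its exons overlap on the other strand with Gabpa itself. Atp5k (chr5:108434400-108434649, minus strand) holds the NRF1 motif, and its GABPA match lies after the start, outside the bases shown. The Ndufa4 window is chr6:11907451-11907700, minus strand.
Cox6a1: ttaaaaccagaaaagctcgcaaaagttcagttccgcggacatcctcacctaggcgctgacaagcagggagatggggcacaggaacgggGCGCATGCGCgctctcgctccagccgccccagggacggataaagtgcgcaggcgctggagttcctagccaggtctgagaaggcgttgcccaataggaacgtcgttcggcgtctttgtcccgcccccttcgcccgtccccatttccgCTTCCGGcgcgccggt
Atp5j: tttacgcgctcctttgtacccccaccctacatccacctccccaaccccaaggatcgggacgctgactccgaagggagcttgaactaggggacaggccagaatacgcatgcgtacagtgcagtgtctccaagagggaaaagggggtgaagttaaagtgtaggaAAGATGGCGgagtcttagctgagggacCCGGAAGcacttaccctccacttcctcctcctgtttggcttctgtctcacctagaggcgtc
Atp5k: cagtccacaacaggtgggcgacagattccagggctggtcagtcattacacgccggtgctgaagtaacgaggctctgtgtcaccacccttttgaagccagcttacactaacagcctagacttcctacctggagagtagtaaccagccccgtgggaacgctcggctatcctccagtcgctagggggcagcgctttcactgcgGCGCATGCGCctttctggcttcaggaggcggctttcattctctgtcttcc
Ndufa4: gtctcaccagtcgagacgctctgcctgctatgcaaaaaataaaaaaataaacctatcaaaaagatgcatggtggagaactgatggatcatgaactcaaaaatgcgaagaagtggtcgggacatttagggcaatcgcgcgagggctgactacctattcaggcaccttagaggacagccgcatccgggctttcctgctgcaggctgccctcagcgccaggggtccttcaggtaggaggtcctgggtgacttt
The log2 fold changes of the 3 genes with motif pairs were -0.18 for Cox6a1, -0.06 for Atp5j and -0.09 for Atp5k. The median over all members was -0.08.

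Of the members, 3 lie on the X chromosome, where labelled Hhex-deleted replicate 1 differs from the other libraries in Xist. Ndufa1, an accessory subunit gene, was at 52.5 and 45.5 CPM against 51.6 and 51.7 CPM. Ndufb11 was at 100 and 91.4 CPM against 108 and 104 CPM, and Cox7b at 118 and 103 CPM against 120 and 115 CPM. Their median log2 value in replicate 1 was 0.006 against the wild-type mean, and in replicate 2 it was -0.19, like that of all members.

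Other genes of the pathway also gave no call. None of 13 complex I assembly genes, 32 assembly genes of the other complexes, 12 coenzyme Q genes, 14 tricarboxylic acid cycle genes, 14 regulators of mitochondrial biogenesis, 7 tested carriers and uncoupling genes, 7 tested hypoxia-response genes and 8 other genes of the chain, ATP synthase and electron transfer (Ndufab1, Atpif1, Usmg5, Mp68, Hccs, Etfa, Etfb and Etfdh) passed edgeR's test. At an unadjusted edgeR p under 0.05 there were 2 higher and 3 lower, Cox4i2 of the members included, where 7.59% and 8.23% of all tested genes passed that threshold. Acad9, an assembly factor of complex I, was at 63.1 and 61.6 CPM against 72.7 and 72.1 CPM (log2 fold change -0.22 ± 0.07 SE, edgeR adjusted p = 0.219). Etfb, which brings electrons from fatty acid oxidation, was at 216 and 181 CPM against 255 and 269 CPM (-0.40 ± 0.10 SE, edgeR adjusted p = 0.125). Both libraries labelled Hhex-deleted were below wild-type for these 2 genes. The lowest p of the lists with none under 0.05 belonged to Coa3, a translation and assembly factor of complex IV (log2 fold change -0.16, edgeR adjusted p = 0.51), Coq9 of coenzyme Q synthesis (-0.16, edgeR adjusted p = 0.492) and the mitochondrial carrier Ucp2 (0.15, edgeR adjusted p = 0.451). Suclg2, of the tricarboxylic acid cycle, was at 89.8 and 83.7 CPM against 75.1 and 72 CPM (0.24 ± 0.08 SE, edgeR adjusted p = 0.204), and Myc at 415 and 415 CPM against 312 and 366 CPM (0.29 ± 0.10 SE, edgeR adjusted p = 0.21), both above wild-type. The list medians ran from -0.12 for hypoxia-response genes to 0.04 for regulators of biogenesis.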

How the data were processed

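Per the labels' protocols, TruSeq RNA libraries (Illumina) were prepared from sorted LSK cells. The authors deposited raw counts per Entrez gene with gene lengths, and log2 RPKM values per library. Subread, featureCounts, limma and build mm9 are named in the submitters' processing notes, while neither the strand setting nor the handling of multi-matching reads is given in the sources used here. The deposited log2 values follow nearly one distribution (median difference 0.000809 after length was added back), so counts gave the main results.

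Libraries were grouped by title, and totals were 27871827 to 29501591 counts, at which 3 counts are 0.0995 to 0.109 CPM. The counts went into edgeR 4.0.16 (R 4.3.3): filterByExpr by group (minimum count 10, minimum total 15), TMM factors, group as the single term, a robust quasi-likelihood test of labelled Hhex-deleted over wild-type, and Benjamini-Hochberg adjustment over all 14912 tested genes (threshold 0.05). The SE is the size of the log2 fold change divided by the square root of F, and the 95% interval uses the fit's degrees of freedom, both approximations. DESeq2 1.42.0, limma-voom 3.58.1 and other settings were alternatives. The fits were tested on simulated data. Replicates differed by more than sampling noise (chi-square per degree of freedom 28.5 or more for each pair). Floors cover counting error only.

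The members and gene lists were chosen with earlier results of these data known. Named members are those with an unadjusted p under 0.05, the 2 highest RPKM values and both ends of fold change per complex, Cyc1, Cycs, alternative isoforms, and the lowest p of each list; the others named were chosen after their values were seen. Symbols came from the deposited tables, promoters and chromosomes from RefSeq GRCm38, and shared windows and exon overlaps from GENCODE M21 on GRCm38. That build differs from the authors', so no coordinates were joined to counts.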

Additional observations from a re-analysis of the deposited data

How the results depend on the processing

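No member was called under limma-voom, RLE factors, library totals, the deposited log2 RPKM values, the replicate block or with any 1 library left out. DESeq2 called 1 higher member (Ndufa4) and the fit without a low-count filter 1 lower member (Cox4i2). Against 221 higher and 167 lower of all tested genes, DESeq2 gave 493 and 495, limma-voom 123 and 79, the deposited log2 RPKM values 34 and 6, library totals 165 and 86, and no filter 284 and 272. With 1 library left out these counts ran from 84 to 366 and from 40 to 231. The members' median log2 fold change was -0.059 to -0.085 under the 7 alternatives that keep all libraries, and -0.182 to -0.001 with 1 library left out. By complex the medians then ran from -0.192 to 0.047 in complex IV, -0.129 to 0.038 in complex II and -0.18 to 0.021 in complex V, each below 0 when labelled Hhex-deleted replicate 1 was dropped and above 0 when replicate 2 was. The medians of complex I (-0.182 to -0.012) and complex III (-0.227 to -0.013) stayed below 0 with any 1 library left out. So did the value of Cycs (-0.362 to -0.108). The cause of these shifts was not tested.

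The replicate numbers in the titles are not said to pair libraries, and differences between replicates 1 and 2 correlated across genes between groups with r = 0.359, over 2 pairs. With the replicate number as a block the members' median was -0.081, and 185 and 130 of all tested genes were called higher and lower.

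Named members near 0 changed sign. Atp5c1 was 0.006 with DESeq2 and RLE factors, 0.022 with library totals and 0.016 with log2 RPKM, Sdha 0.007, 0.007, 0.022 and 0.002, and Atp5b 0.083 with log2 RPKM. With 1 library left out the ranges were -0.184 to 0.065 for Atp5b, -0.06 to 0.062 for Atp5c1, -0.213 to 0.021 for Atp5g2, -0.201 to 0.045 for Atp5g3, -0.237 to 0.171 for Cox6b2, -0.189 to 0.063 for Cox7a2, -0.216 to 0.013 for Ndufa3, -0.186 to 0.033 for Ndufb9, -0.033 to 0.136 for Ndufs1, -0.057 to 0.06 for Sdha, -0.172 to 0.017 for Sdhc, -0.103 to 0.35 for Sdhd and -0.079 to 0.154 for Uqcrh. None of these was called. Leaving out a library leaves 1 group with a lone library, assumed to vary like the other group. Depth limits Cox4i2, Cox6a2 and Cox7a1, which had at most 100 reads in a library.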

Other observations

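The count table holds further genes of these families that the deposited log2 RPKM tables do not list. Cox8a, which encodes the general isoform of the smallest complex IV subunit, had 1 and 0 reads (labelled Hhex-deleted) against 0 and 0 (wild-type), and Uqcr11, a complex III subunit gene, had 0 and 0 against 0 and 1. Respiring cells use both, so these values say only that the genes are listed at or near 0. None of the 50-base windows of Cox8a and 10.9% of those of Uqcr11 occur in other annotated genes. The muscle isoform Cox8b had 2 and 0 reads against 1 and 0, and Cox8c and Cox7b2 had none.

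Ndufb4c, which shares windows with Ndufb4, took more reads than Ndufb4 itself. It had 611 and 484 reads against 541 and 495, where Ndufb4 had 67 and 65 against 68 and 62. Ndufb4b had 45 and 43 against 55 and 63. The pseudogene Ndufs6b stood at 18 and 15.5 CPM against 19.4 and 18.1 CPM, beside 32.3 and 24.8 against 33.2 and 32.3 CPM for Ndufs6. How reads were divided between the copies was not tested.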
